A study of Mus musculus with 6 samples.

Results

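The genes of cohesin, CTCF and SMCHD1 fold chromosomes into loops and keep some gene clusters silent. The 10 genes described here were chosen by symbol for their known control of promoter choice and silencing at the clustered protocadherins, and all 10 were among the 21006 gene symbols listed and the 14555 genes tested. They are Ctcf, Rad21, Smc1a, Smc3, Stag1, Stag2, Nipbl, Wapl, Pds5b and Smchd1. RNA came from mouse branchial arches, the embryonic swellings that form the jaws and throat, at E11.5. Both groups carried the Rosa26 TdTomato/+ reporter and Wnt1-cre, which acts in the neural crest and its descendants, and cells were sorted on the red reporter. The 3 DKO (double knockout) libraries came from embryos homozygous for floxed alleles (Ehmt1f/f and Ehmt2f/f), and the 3 control libraries from embryos with unfloxed alleles (Ehmt1+/+ and Ehmt2+/+). These genes encode GLP and G9a, the paired enzymes that mono- and dimethylate histone H3 at lysine 9. The replicates are labelled as biological, and the labels leave the number of embryos per library unstated.

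Cohesin is a ring of SMC1A, SMC3 and the kleisin RAD21, to which STAG1 or STAG2 binds. NIPBL drives loading and loop extrusion, WAPL opens the ring, and PDS5 proteins help to hold or release it. CTCF, a zinc-finger protein, stops the moving ring at its binding sites, and at the protocadherin clusters this brings a distant enhancer to the chosen promoter. SMCHD1, a non-canonical SMC protein, silences the inactive X chromosome, the protocadherin clusters and some imprinted genes, and in human cells LRIF1 links it to HP1 and H3K9 methylation.

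Total counts were 23414466 to 44538260 per library. Ehmt2 stood at 119 to 140.4 CPM (library-size normalised counts, scaled by TMM) in DKO and 347 to 359.6 CPM in the controls, and Ehmt1 at 133 to 168 against 249.98 to 268 CPM. For both genes the highest DKO value was that of DKO replicate 3. All 14 markers of arch crest mesenchyme were detected and tested, with summed levels of 2029 to 2596 CPM in DKO against 2329.9 to 2814 CPM in the controls. Summed, 10 neuron and glia markers stood at 1068 to 1142 CPM against 1133 to 1337 CPM, with Pou4f1 called lower by edgeR. The sum of 7 erythroid markers varied from 18.8 to 310 CPM in DKO and from 97.9 to 172 CPM in the controls. DKO replicate 3 was the DKO library nearest to the controls on principal component 1, at -0.93, where DKO replicates 1 and 2 lay at -20.5 and -27.2 and the controls between 9.43 and 21.0. DKO replicate 3 and control replicate 2 had 1 and 0 counts over 4 Y-linked genes, against 4635 to 8794 in the others.

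No member was called between the groups, yet 9 of the 10 had every DKO library below every control library, as 12.7% of all tested genes did. The exception was Ctcf. By edgeR's quasi-likelihood test 0 of 10 members passed an adjusted p of 0.05, where 0.818% of all tested genes were called lower and 2.19% higher. At an unadjusted p below 0.05, 7 of 10 members had lower DKO levels, against 9.89% of all tested genes. limma-voom called 0 members and DESeq2 called 7 lower (Nipbl, Pds5b, Rad21, Smc3, Smchd1, Stag2 and Wapl), where DESeq2 called 3.31% of all tested genes lower. The lack of calls therefore depended on the tool. It also rested on 1 library: without DKO replicate 3, edgeR called 5 members lower (Nipbl, Pds5b, Smchd1, Stag2 and Wapl), where 3.49% of tested genes were called lower. In bulk samples, fewer cells of a type and less RNA per cell cannot be told apart.

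**Figure D1:**
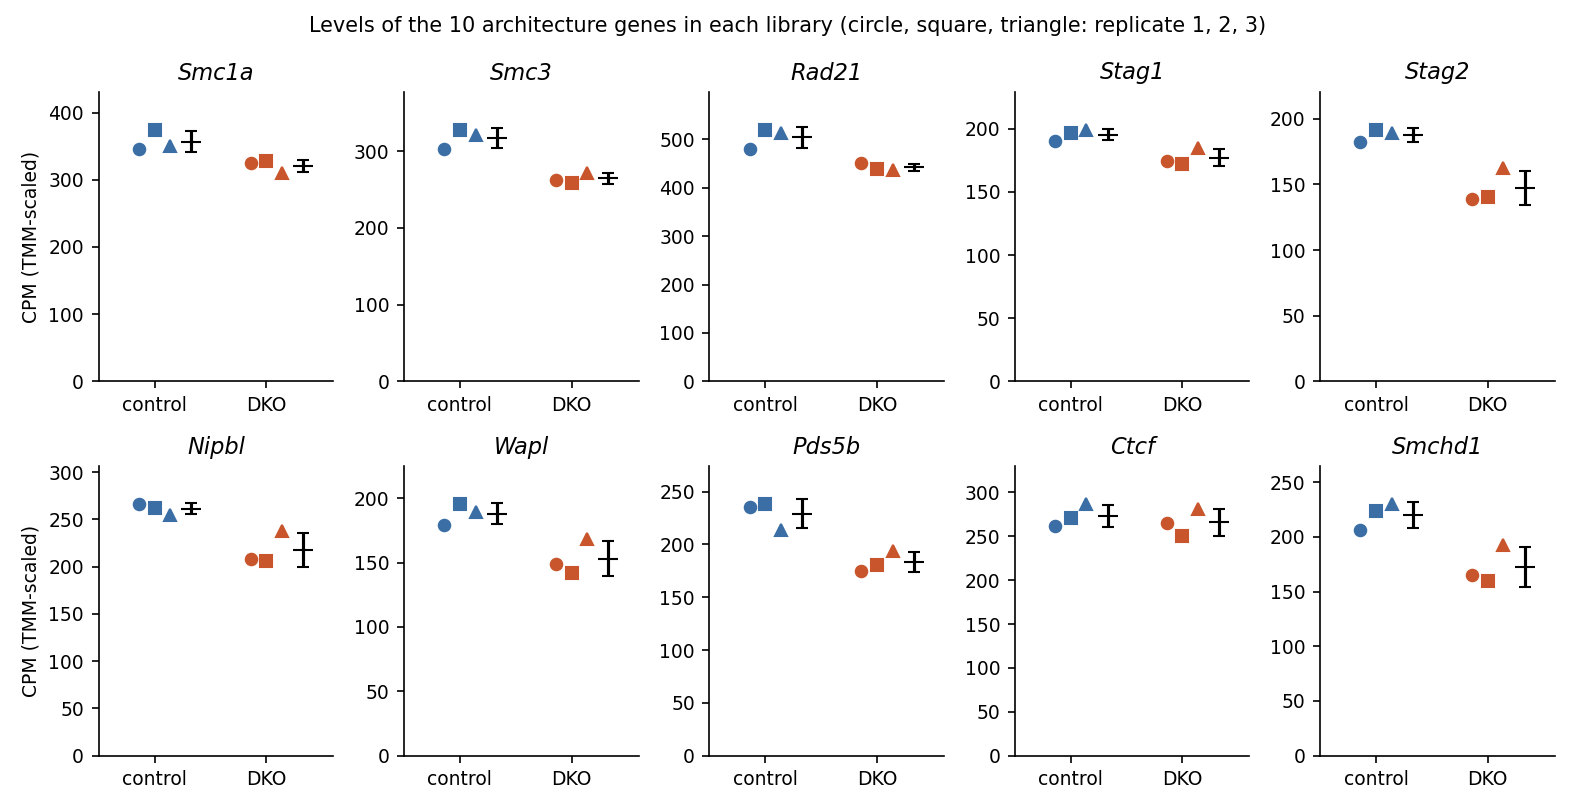
TMM-scaled CPM of each member in the 3 control (blue) and 3 DKO (orange) libraries, with the mean and SD in black. In 9 panels the DKO points lie below all control points, and in the Ctcf panel the groups overlap.

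The 3 ring subunits had log2 fold changes (DKO over control) between -0.26 and -0.15. Smc3 (chromosome 19, 53600396 to 53645831) encodes the subunit whose acetylation locks the ring on DNA. It measured 263, 258 and 272 CPM in DKO replicates 1 to 3 and 303, 328 and 321 CPM in control replicates 1 to 3. The groups were 30.7 CPM apart at their nearest libraries. Its log2 fold change was -0.26 (SE 0.07; 95% interval -0.42 to -0.11; edgeR adjusted p = 0.0815). Rad21 (chromosome 15, 51962604 to 51993538), the kleisin that closes the ring and is cut at anaphase, measured 451, 439 and 436 CPM in DKO against 479.8, 519.8 and 512 CPM in the controls. Its log2 fold change was -0.19 (SE 0.07; edgeR adjusted p = 0.1796). Smc1a (X chromosome, 152016428 to 152061973), the partner of SMC3 at the hinge, measured 325, 327 and 311 CPM in DKO against 346, 374 and 350.4 CPM in the controls, with a log2 fold change of -0.15 (SE 0.07; adjusted p = 0.253). The DKO library without Y-linked counts was the lowest of the 6 for Smc1a, and the control library without them was the highest.

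The alternative subunits STAG1 and STAG2 are paralogs, of which a ring holds 1. Stag2 (X chromosome, 42149297 to 42277186) measured 139, 141 and 162 CPM in DKO against 182, 192 and 189 CPM in the controls. All 3 DKO libraries lay below the controls, and DKO replicate 3 lay nearest to them. The log2 fold change was -0.35 (SE 0.08; 95% interval -0.53 to -0.17; edgeR adjusted p = 0.0599), the smallest adjusted p of the 10. Stag1 (chromosome 9, 100597709 to 100958544) measured 174, 172 and 184 CPM in DKO against 190.1, 197 and 199 CPM in the controls, with a log2 fold change of -0.14 (SE 0.07; adjusted p = 0.253).

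The count ratio of Stag1 to Stag2 within a library was 1.25, 1.22 and 1.14 in DKO and 1.05, 1.03 and 1.05 in control libraries. All DKO ratios exceeded all control ratios, and the control ratios were the tighter group. On the log2 scale the mean ratio was 0.26 ± 0.07 in DKO against 0.06 ± 0.02 in the controls (mean ± SD, n = 3 each), a difference of 0.21 with a 2-sided exact permutation p of 0.1. This is the smallest p that 3 against 3 can give, and it was 0.2 after adjustment over the 4 gene pairs compared. Library scaling cancels in a ratio taken within a library.

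Loading, release and regulation of the ring gave values in the same range. Nipbl (chromosome 15, 8289824 to 8465315), the loader whose human counterpart is the gene most often mutated in Cornelia de Lange syndrome, measured 208, 207 and 238 CPM in DKO against 266, 262 and 255 CPM in the controls. DKO replicate 3 lay 16.6 CPM below the nearest control. The log2 fold change was -0.26 (SE 0.08; edgeR adjusted p = 0.117). Wapl (chromosome 14, 34672379 to 34747983), the release factor, measured 149, 142 and 168 CPM in DKO against 179.6, 196 and 189 CPM in the controls, a log2 fold change of -0.30 (SE 0.08; adjusted p = 0.0982). Pds5b (chromosome 5, 150673713 to 150810669), a regulator that works with both WAPL and the cohesion machinery, measured 175, 180.4 and 193 CPM in DKO against 236, 238 and 213 CPM in the controls. Its log2 fold change was -0.33 (SE 0.08; 95% interval -0.50 to -0.15; adjusted p = 0.062).

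The loader and the release factor were set against each other. The count ratio of Nipbl to Wapl was 1.42 ± 0.03 in DKO against 1.39 ± 0.08 in the controls (mean ± SD, n = 3 each; 2-sided exact permutation p = 0.6), and the groups overlapped. Without control replicate 1 the log2 difference went from 0.03 to 0.08, at the smallest exact p that 3 against 2 can give (0.1). Pds5a, the paralog of Pds5b, was not a member, and its log2 fold change was -0.24 (SE 0.08; adjusted p = 0.156). The Pds5a to Pds5b ratio was 1.48 ± 0.05 and 1.40 ± 0.14 (mean ± SD, n = 3 each; exact permutation p = 0.4), again with overlap, and without control replicate 3 the log2 difference went from 0.08 to 0.16 (exact p = 0.1).

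Ctcf (chromosome 8, 105636474 to 105682922) had the log2 fold change nearest to 0. It measured 266, 250.5 and 281 CPM in DKO against 262, 271 and 287 CPM in the controls. The groups overlapped, with DKO replicate 3 above control replicates 1 and 2. The log2 fold change was -0.04 (SE 0.08; 95% interval -0.21 to 0.13; edgeR adjusted p = 0.814), and its sign turned positive when libraries were scaled by their size only (0.04) or DKO replicate 2 was left out (0.0024). Set against Rad21, the count ratio of Ctcf was 0.59, 0.57 and 0.65 in DKO and 0.55, 0.52 and 0.56 in control libraries, without overlap. The log2 difference of 0.15 had an exact permutation p of 0.1 (0.2 over the 4 pairs), and it was 0.07 in the 4 libraries with Y-linked counts.

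Smchd1 (chromosome 17, 71344489 to 71475366) had the lowest log2 fold change of the 10. It measured 165, 159 and 193 CPM in DKO against 207, 224 and 230.2 CPM in the controls, so that the groups stood 13.5 CPM apart at DKO replicate 3 and control replicate 1. The log2 fold change was -0.35 (SE 0.09; 95% interval -0.56 to -0.14; edgeR adjusted p = 0.0806). The lower ends of all 10 intervals lay at or above that -0.56, well short of a halving of the level (-1 on the log2 scale).

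Within the DKO group 8 of the 10 members were lowest in replicate 1 or 2, and Rad21 and Smc1a in replicate 3. The median deviation of the members from the control mean (log2) was -0.30 and -0.32 in DKO replicates 1 and 2, and -0.19 in DKO replicate 3. The sum of the 10 members was 2343 ± 85.2 CPM in DKO against 2732 ± 76.3 CPM in the controls (mean ± SD, n = 3 each). Over the 6 libraries, the closest profiles were those of Stag2 with Smchd1 and of Rad21 with Smc1a. Each pair had a root mean square difference of centred log2 levels of 0.0362, followed by Stag2 with Wapl at 0.0373. The most distant pair was Ctcf and Pds5b, at 0.171. By the same measure, the genes most like Ctcf among 10107 others with a mean of at least 10 CPM were Reps1, Ddx54 and Pecr (0.0168 to 0.0175), and those most like Smchd1 were Selenoi, Cul2 and Urb1 (0.0207 to 0.0315).

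Other abundant genes also had lower levels in DKO libraries. The members had a median log2 fold change of -0.26, beside -0.01 over all tested genes. Over the 1349 tested genes whose mean level lay within the members' own range (168 to 473 CPM), a set defined after the values were seen, the median was -0.12 and 85.2% had negative values. All DKO libraries lay below all controls for 29.1% of these 1349 genes, beside 9 of 10 members. An unadjusted p below 0.05 with a lower DKO level was seen for 24.2% of the 1349, beside 7 of 10 members. The share of the 1349 called lower by DESeq2, or by edgeR without DKO replicate 3, was not counted. For those calls only the shares over all tested genes are given. With scaling by library size only, the median over all tested genes moved from -0.01 to 0.07 and that of the members from -0.26 to -0.18. The summed level of 12 S phase and mitosis genes, none of them called and none at 0, was also separated, with 3728 to 3977 CPM in DKO against 3982 to 4536 CPM in the controls. That of 7 endothelial markers, of which Tie1 was called higher and none was at 0, was 26.0 to 29.99 CPM against 13.3 to 17.2 CPM. The part of either in the members' values was not tested.

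**Figure D2:**
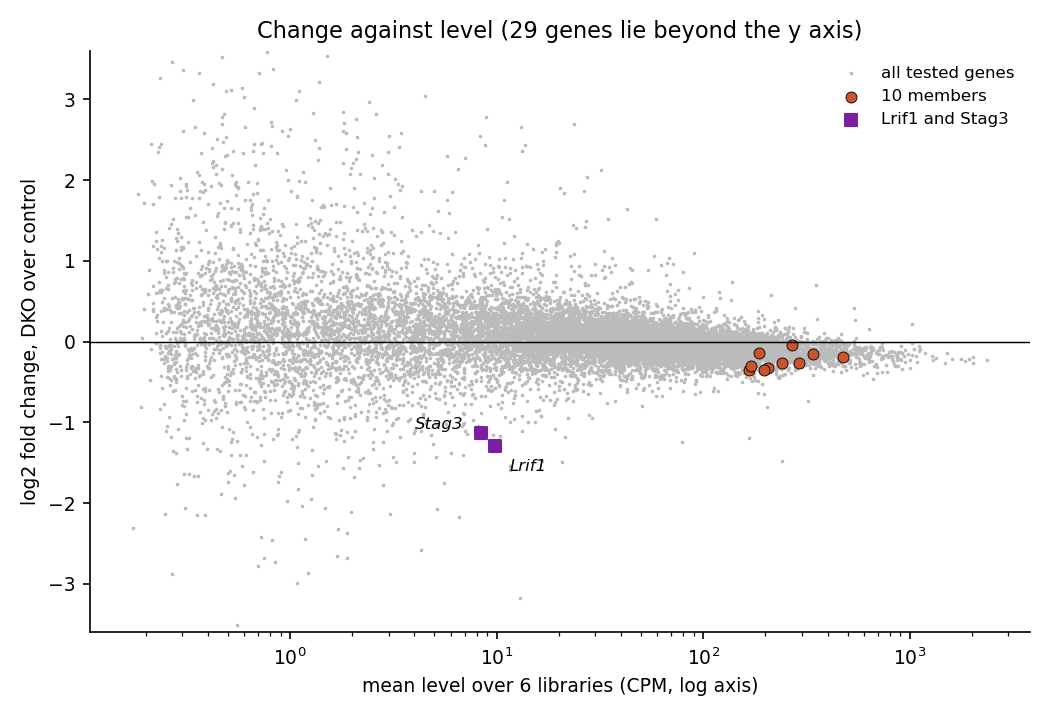
Log2 fold change (DKO over control) against the mean level over 6 libraries on a log axis, for all tested genes (grey), the 10 members (orange) and the called genes Lrif1 and Stag3 (purple). The members lie in the right part of the cloud, at 168 to 473 CPM, where 85.2% of genes lie below 0.

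Per kilobase of principal transcript, Rad21 was the most abundant member. In control libraries it measured 127 ± 5.38 CPM per kb (SD, n = 3), followed by Smc1a at 76.1 ± 3.27, Ctcf at 72.2 ± 3.39 and Smc3 at 65.4 ± 2.68. Smc1a and Ctcf overlapped between libraries, and Smc3 lay below Ctcf without overlap. The other 6 formed a narrow band from 31.6 ± 0.75 CPM per kb for Stag1 to 27.7 ± 0.626 for Nipbl, and within it each neighbour down to Wapl overlapped the one before. In DKO libraries Ctcf stood above Smc1a (70.3 ± 4.07 and 68.4 ± 1.92 CPM per kb), with overlap. When all annotated exons of a gene were used as its length, Rad21 stayed first and Smc1a second. Smc3 (57.2 CPM per kb) then stood above Ctcf (56.2). Stag1 moved from the 5th to the 9th place and Smchd1 from the 7th to the 10th. The band widened to 28.4 CPM per kb for Wapl down to 11.0 for Smchd1. The order below Smc1a and the width of the band therefore depend on the transcript assumed.

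Of the other genes of the pathway, the SMCHD1 partner Lrif1 and the meiotic cohesin gene Stag3 fell. Among 39 such genes, 37 were tested, 0 rose, 2 fell and 35 were not called, where 0.818% of all tested genes were called lower. Lrif1 (chromosome 3, 106684942 to 106736577) measured 5.09, 5.002 and 6.97 CPM in DKO replicates 1 to 3 and 15.05, 14.1 and 12.6 CPM in control replicates 1 to 3. Every DKO library lay far below every control library, with DKO replicate 3 the highest of its group. The log2 fold change was -1.29 (SE 0.17; 95% interval -1.67 to -0.90; edgeR adjusted p = 0.00747). It was called under all 15 alternatives, with values of -1.46 to -1.20 and adjusted p up to 0.0457. In control libraries Lrif1 stood at 4.48 ± 0.402 CPM per kb and its partner gene Smchd1 at 31.2 ± 1.73 CPM per kb (mean ± SD, n = 3 each). In DKO libraries the levels were 1.83 ± 0.358 and 24.4 ± 2.56 CPM per kb.

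Stag3, the meiotic counterpart of Stag1 and Stag2, measured 4.63, 6.33 and 4.89 CPM in DKO against 13.8, 11.3 and 9.64 CPM in the controls. The groups did not overlap, and the log2 fold change was -1.13 (SE 0.19; edgeR adjusted p = 0.0199). The call ended without DKO replicate 1 (adjusted p = 0.0929), without control replicate 1 (0.0767) or 2 (0.0785), and in the 4 libraries with Y-linked counts (0.0787). The other meiotic ring genes, named after their values were seen, gave no call. Smc1b measured 0.485, 0.982 and 0.536 CPM in DKO against 0.894, 0.583 and 0.649 CPM in the controls (log2 fold change -0.11, SE 0.36, adjusted p = 0.902). Rec8, the meiotic kleisin, varied within both groups, with 20.4, 23.8 and 3.69 CPM in DKO against 16.2, 11.3 and 0.103 CPM in the controls. Rad21l had too few counts to be tested.

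Stag3 and Smc1b are known targets of the repressor E2F6 in somatic mouse cells, so their promoters are shown together. The windows run from 250 bases before to 30 bases after a RefSeq start, on GRCm38.p6. For Stag1 and Stag3 the RefSeq gene begins upstream of the window, at 100597709 and 138272514. These windows therefore do not cover the outermost start of either gene. Those of Stag3 (chr5:138280259-138280538, plus strand) and Smc1b (chr15:85131928-85132207, minus strand) are followed by that of Stag1 (chr9:100643198-100643477, plus strand), the member with the same motif, and of Lrif1 (chr3:106684737-106685016, plus strand), the called gene with the smaller adjusted p. Capitals mark the E2F-like motif TTCCCGC, searched on both strands.
Stag3: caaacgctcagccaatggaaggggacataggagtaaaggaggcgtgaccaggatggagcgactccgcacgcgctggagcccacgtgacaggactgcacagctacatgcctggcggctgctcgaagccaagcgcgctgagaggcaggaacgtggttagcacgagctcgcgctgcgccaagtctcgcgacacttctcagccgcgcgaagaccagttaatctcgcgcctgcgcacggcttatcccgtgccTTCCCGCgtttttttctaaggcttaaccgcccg
Smc1b: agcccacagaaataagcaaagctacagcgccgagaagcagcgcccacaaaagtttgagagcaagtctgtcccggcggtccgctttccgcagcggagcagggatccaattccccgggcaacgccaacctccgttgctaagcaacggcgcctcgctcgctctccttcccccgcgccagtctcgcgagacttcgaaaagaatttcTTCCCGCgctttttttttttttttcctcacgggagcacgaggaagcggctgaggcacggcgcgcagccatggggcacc
Stag1: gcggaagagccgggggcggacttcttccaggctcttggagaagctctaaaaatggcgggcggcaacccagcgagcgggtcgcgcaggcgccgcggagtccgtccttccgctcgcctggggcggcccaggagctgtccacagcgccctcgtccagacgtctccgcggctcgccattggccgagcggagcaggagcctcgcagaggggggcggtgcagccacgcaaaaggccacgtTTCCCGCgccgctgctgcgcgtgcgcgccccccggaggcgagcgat
Lrif1: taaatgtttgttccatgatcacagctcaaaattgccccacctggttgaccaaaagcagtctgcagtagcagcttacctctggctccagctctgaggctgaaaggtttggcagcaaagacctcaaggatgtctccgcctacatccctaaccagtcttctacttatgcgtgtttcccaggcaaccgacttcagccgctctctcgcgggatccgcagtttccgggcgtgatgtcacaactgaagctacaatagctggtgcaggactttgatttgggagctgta

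The motif lay 1 time in each of the Stag3, Smc1b and Stag1 windows, with its first base 3, 48 and 16 bases before the start that the window uses. In the Stag3 and Smc1b windows a run of T follows within 2 bases of it. Of 32851 RefSeq promoter windows of this length, 4.29% held the motif. Stag3, which fell, Smc1b, which was not called, and Stag1, which stood at 172 to 199 CPM, shared the same 7 letters. The Lrif1 window, the upstream 1 of 2 RefSeq starts, held 9 CpG dinucleotides and no such motif, against 30 CpG in Stag3, 28 in Smc1b and 38 in Stag1. Of the members, 7 had a RefSeq window, and Stag1 was the only one of these 7 with the motif. Rad21, Stag2 and Nipbl were not matched.

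By edgeR, cohesin regulators and condensins gave no call with all 6 libraries. Of 12 loading, cohesion and cleavage factors, 0 were called by edgeR, with a median log2 fold change of 0.03. Those with the highest mean CPM were Pds5a and Espl1, which encodes separase, the protease that cuts the kleisin, at 0.04 (SE 0.08; edgeR adjusted p = 0.814). Among them Pttg1, the securin gene, named after its value was seen, had a log2 fold change of the opposite sign to the members. It measured 57.0, 56.7 and 53.7 CPM in DKO against 35.7, 22.0 and 42.5 CPM in the controls, without overlap (log2 fold change 0.74, SE 0.21, adjusted p = 0.121 by edgeR), and DESeq2 called it higher. Of 14 condensin and SMC5/6 subunits 0 were called by edgeR, with a median of -0.15. The most abundant, Ncapd2 and Smc4, had log2 fold changes of -0.15 (SE 0.08; adjusted p = 0.293) and -0.34 (SE 0.11; adjusted p = 0.1403). Without DKO replicate 3, edgeR called Smc4, Smc6 and Ncapg2 lower, and DESeq2 on all libraries called Smc6 lower; the names of Smc6 and Ncapg2 were taken after their values were seen. Of 8 tested CTCF, loop and SMCHD1 factors, Lrif1 was the 1 call by edgeR, and the median was -0.08. Chd4, which encodes the nucleosome remodeller of the NuRD complex and was named after its value was seen, had a log2 change of -0.33 (SE 0.08; adjusted p = 0.0713). It was called lower by DESeq2 and by edgeR without control replicate 1.

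**Figure D3:**
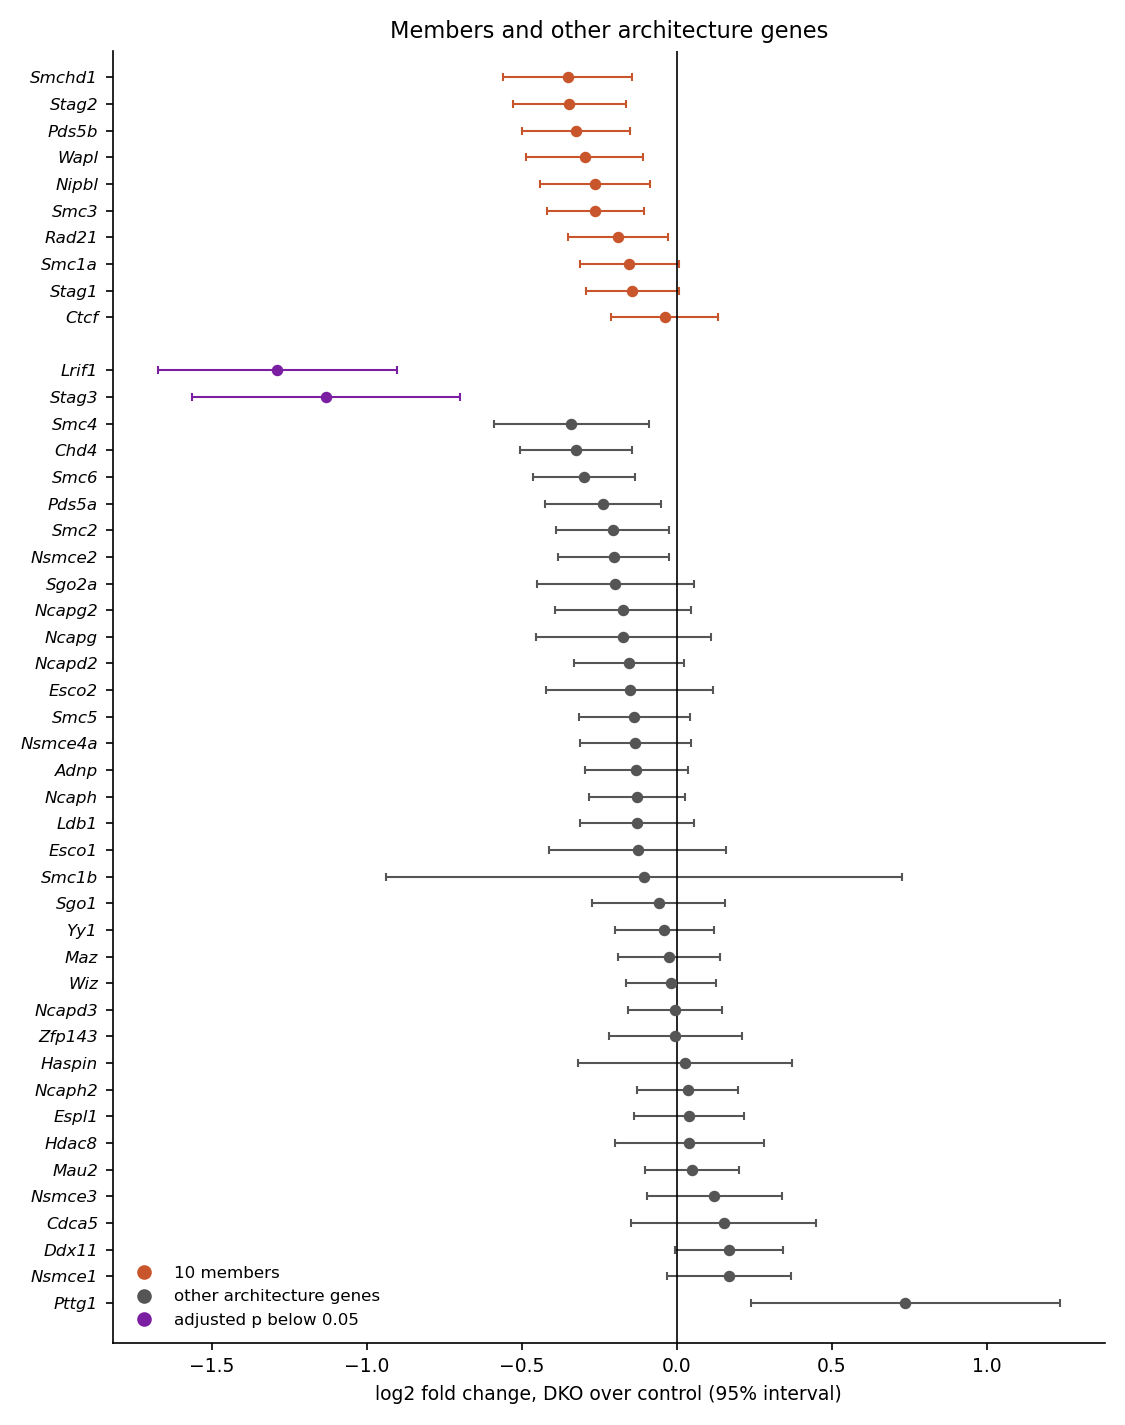
Log2 fold change (DKO over control) with its 95% interval for the 10 members (orange) and 36 of the other tested architecture genes (grey, called genes purple; Rec8 is left out because its interval runs from -2.66 to 4.23). Lrif1 and Stag3 stand apart from the rest, and all members lie between -0.35 and -0.04.

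**Figure D4:**
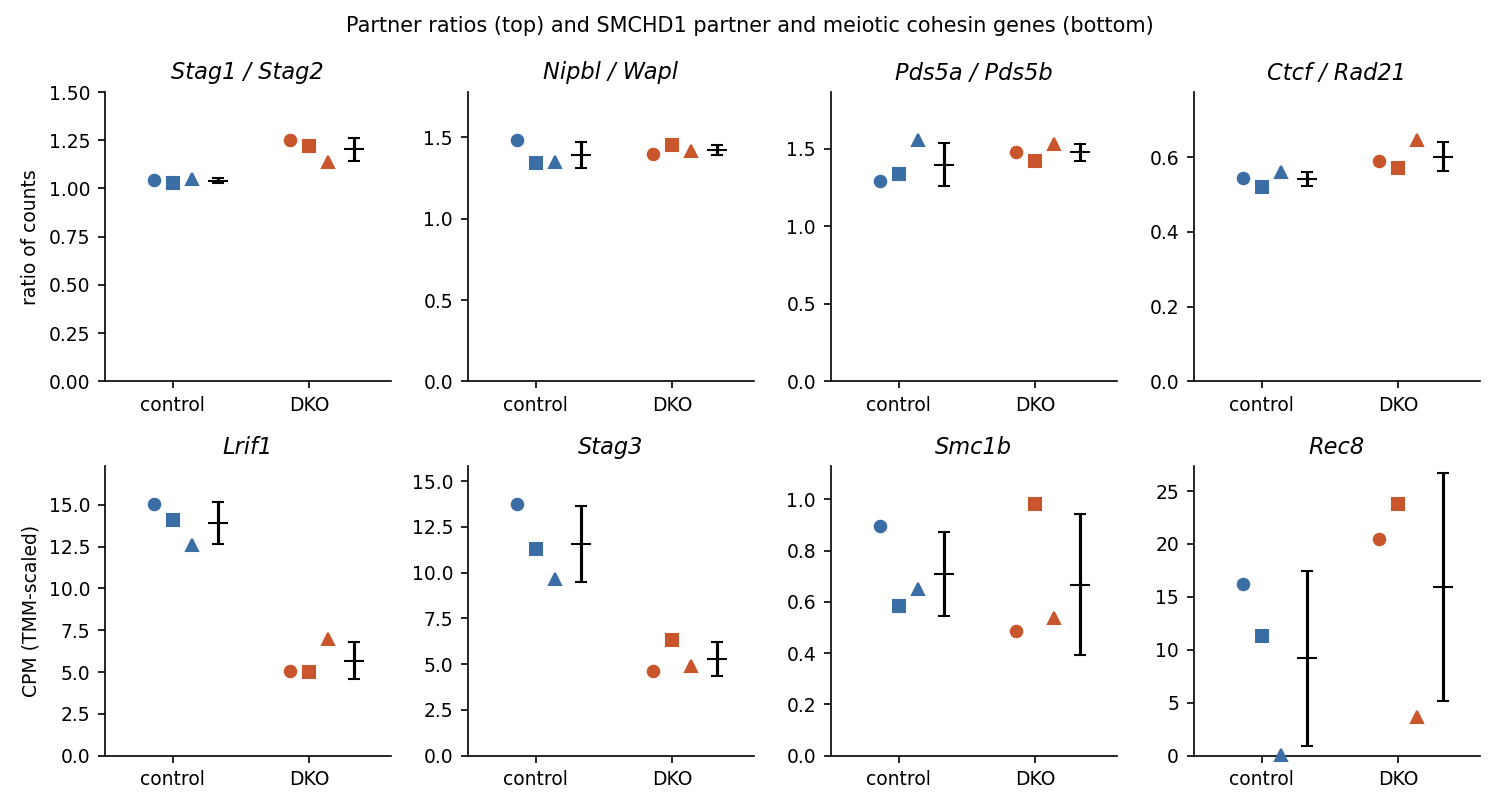
Top, ratios of counts within each library for 4 gene pairs. Bottom, TMM-scaled CPM of Lrif1, Stag3, Smc1b and Rec8. Points are libraries (circle, square and triangle for replicates 1, 2 and 3) and black bars the mean and SD. Stag1 over Stag2 and Ctcf over Rad21 do not overlap between groups, and neither do Lrif1 and Stag3.

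Among the gene clusters that these factors are known to control, many clustered protocadherins fell. Of 57 listed, 44 were tested and 13 were not. By edgeR, 21 of the 44 fell and 1 rose, with a median log2 fold change of -1.41. Of all tested genes, 0.818% were called lower and 2.19% higher. The 21 became 6 without DKO replicate 1 or control replicate 1, 12 without control replicate 2 and 9 without control replicate 3, and the 1 higher call was lost in each of these 4 fits. The Pcdhb genes had a median of -2.39, whereas the Pcdhgc genes at the far end had a median of 0.12 and 0 calls. Levels of the 18 tested Pcdhb genes, 15 of them called lower, were low. Their means were 0.473 to 3.25 CPM in the controls and 0.063 to 0.738 CPM in DKO. Some of them passed the expression filter through the control libraries alone. Pcdhb14, for example, had 6, 6 and 4 counts in DKO replicates 1 to 3 against 29, 16 and 11 in control replicates 1 to 3. The calls and medians of the clusters therefore include genes that were tested because they were higher in the controls. Of 14 Pcdha genes, 5 were tested and 0 called. Of 6 listed genes of the Snrpn imprinted cluster, another SMCHD1 target, 5 were tested and 1 was not. Among the 5, Magel2 rose (0.38, SE 0.08, edgeR adjusted p = 0.0372). The call was lost in 5 of the 6 fits that left out 1 library, all but the fit without DKO replicate 3. Ube3a of the same list, named after its value was seen, had a log2 change of -0.42 (SE 0.14; adjusted p = 0.157). It was called lower without DKO replicate 3 (-0.59, adjusted p = 0.0170). The other 3 lay between -0.19 and 0.21. Among the 10 factors the log2 fold change farthest from 0 was -0.35.

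The dependence on the tool and on 1 library is drawn for each member. Under 15 alternative settings, 9 members kept a negative log2 fold change in each, and Ctcf in 13 of them.

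**Figure D5:**
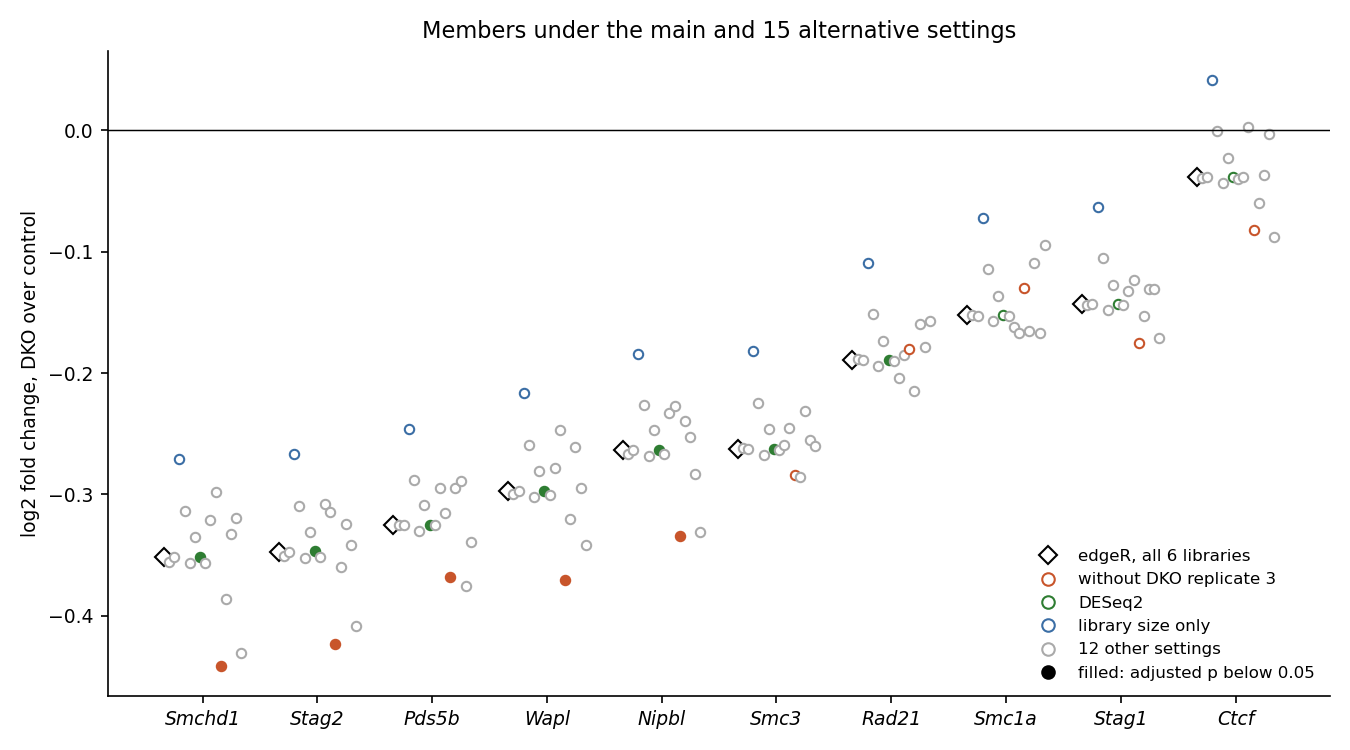
Log2 fold change of each member under the main setting (black diamond) and 15 alternatives (circles). Filled symbols have an adjusted p below 0.05, and they occur with DESeq2 (green, 7 members) and without DKO replicate 3 (orange, 5 members), while scaling by library size only (blue) gave the values closest to 0 for 9 members and a positive value for Ctcf.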

How the data were processed

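The 6 libraries were made with a stranded mRNA kit from polyA RNA, per the labels' protocols. The authors deposited 1 table of raw counts by gene symbol. Reads were handled with STAR 2.7.10a, Trim Galore and Picard on mm10, per the submitters' processing notes. How reads were assigned to genes, with which annotation and strand setting, and whether duplicates were removed is not given in the sources used here. Ctcf overlaps Agrp on the other strand, which had 2 to 10 counts per library. Smchd1 overlaps the annotated protein-coding gene Gm4707 on the same strand, and the part of this overlap in the Smchd1 counts was not tested.

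Counts were tested with edgeR 4.0.16 in R 4.3.3: filterByExpr (minimum count 10, minimum total 15), TMM scaling and the robust quasi-likelihood test, 2-sided, with group as the only term, adjusted by Benjamini-Hochberg over 14555 genes, and called at 0.05. The SE is the size of the log2 fold change divided by the root of F. Alternatives were DESeq2 1.42.0 and limma-voom (limma 3.58.1), other scalings and filters, a replicate block and left-out libraries. Ratios were compared by 2-sided exact permutation over samples. Lengths come from GENCODE vM21 and coordinates and promoters from RefSeq (GRCm38.p6). Likeness used log2(CPM + 0.5).

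All 10 members were named, with Pds5a, the called genes of each list or its 2 most abundant genes where none was called, and the 3 genes most like Ctcf and Smchd1. The members and lists were chosen with earlier results of these data known, and the promoter motif after them; 1 listed gene is not reported here. The edgeR, limma-voom and DESeq2 p-values set the group difference against the spread between these samples. The exact p-values of the ratios set it against the differences under every relabelling of the samples.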

Additional observations from a re-analysis of the deposited data

How the results depend on the processing

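Directions were mostly stable, and the calls of members changed with DESeq2 and without DKO replicate 3. Over 10 members and 15 alternatives each, 136 of 150 values kept their direction and side of the threshold, 12 gained a call and 2 changed sign. The sign changes were Ctcf with library-size scaling only (0.0412) and within its range of -0.082 to 0.00238 when 1 library was left out. Members called lower numbered 0, and 7 with DESeq2 and 0 to 5 with 1 library left out. Other architecture genes called lower numbered 2, and 4 with DESeq2 (1 higher), 1 to 5 with 1 library left out and 1 in the libraries with Y-linked counts. Clustered protocadherins called lower numbered 21, and 13 with at least 1 CPM in 3 libraries and 6 to 20 with 1 left out; those called higher numbered 1, and 2 with the replicate block, 3 with DESeq2, 0 to 4 with 1 left out and 2 in the libraries with Y-linked counts. Snrpn cluster genes called higher numbered 1, and 0 to 1 with 1 left out and 0 in the libraries with Y-linked counts; those called lower numbered 0, and 0 to 1. All tested genes called were 319 higher and 119 lower (72.8% higher), and 415 and 80 with library size only (83.8%), 624 and 482 with DESeq2 (56.4%), and 110 to 597 and 21 to 509 with 1 left out. The cause of these moves was not tested.

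With the replicate block the calls were 423 higher and 196 lower and 0 members. Deviations of same-numbered libraries correlated at -0.00451, -0.0617 and 0.375 over 10224 genes, so the numbers were not taken as pairs. Between differently numbered libraries the values ran from -0.480 (DKO replicate 2, control replicate 3) to 0.589 (DKO replicate 2, control replicate 1). What the libraries of the 2 groups share was not tested, and the main fit has no term for it. The Stag1 to Stag2 log2 difference was 0.18 to 0.25 with 1 library left out, with the same sign in each. With 3 libraries a group, the exact tests of ratios could not pass 0.05. Each member had at least 4270 counts in each library, so the spread between libraries, more than counting error, limits the precision.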
